A study of Homo sapiens with 4 samples.

Results

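The genes described here are 10 that carry glucose into the cell and commit it to lactate: the glucose transporters SLC2A1 and SLC2A3, the hexokinases HK1 and HK2, the phosphofructokinase subunits PFKL, PFKM and PFKP, the pyruvate kinase PKM, and the lactate dehydrogenase subunits LDHA and LDHB. Their rows were picked by gene symbol, from a list made with earlier results of these data known. All 10 were found once in each expression table, out of 13092 genes listed in either table. RNA was sequenced from RKO, an established cell line from a human colon carcinoma, in 1 library of cells overexpressing HADH-S (below, HADH-S cells) and 1 library of control cells whose genotype is labelled WT. HADH-S is, by the series title, a nuclear form of HADH, otherwise a mitochondrial enzyme of fatty acid oxidation, and the RNA comparison was made to look for its target genes. The vector, the promoter that drives HADH-S, and whether the cells were a pool or a clone were not given in the sources used here. A chromatin immunoprecipitation library and its input, both from overexpressing cells, were not analysed here.

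Glycolysis turns glucose into pyruvate in the cytosol, and lactate dehydrogenase then turns pyruvate into lactate while restoring NAD+. Several of its steps can be run by more than 1 gene, and the isoenzymes differ in kinetics, in regulation and in the tissues that favour them, so the mixture of isoenzymes is characteristic of a cell type. Hexokinase, phosphofructokinase and pyruvate kinase catalyse the steps that are practically irreversible, and colon carcinoma cells are generally known for high glucose uptake and lactate release.

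The HADH-S library held 6963608 reads assigned to listed genes and the control library 6773421. Levels are given in RPKM, reads per kilobase of the listed transcript, scaled to that library size, and the read numbers behind them were recovered from the RPKM values. The transcript annotated to HADH was at 54.4 RPKM in HADH-S cells and at 26.5 RPKM in control cells, from 651 and 309 reads, in the direction of the label. In bulk RNA, fewer cells with a transcript and less of it per cell cannot be told apart. With 1 library per condition there was no replicate spread and no test between conditions. Each ratio below carries an exact 95% counting interval, which covers counting error only and is therefore narrower than the difference between separate cultures would warrant. Among markers of colon epithelium, KRT18 stood at 93.8 RPKM in HADH-S cells and 91.7 RPKM in control cells, and EPCAM at 9.57 RPKM in HADH-S cells and 8.20 RPKM in control cells. CDX2 was at 4.37 RPKM in HADH-S cells and 3.60 RPKM in control cells, and KRT8 at 2.81 RPKM in HADH-S cells and 2.54 RPKM in control cells. KRT19, CDH1 and VIL1 were listed in neither table. Of 19 markers of fibroblasts, endothelium, leukocytes, red cells and striated muscle, 4 were listed, at a summed 0.694 RPKM in HADH-S cells and 0.190 RPKM in control cells, and PTPRC, PECAM1, DCN, HBB and CKM were listed in neither table.

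RKO cells carried both transporter transcripts, with more SLC2A1 than SLC2A3. SLC2A1 (chromosome 1, 42925353 to 42958868 in GRCh38.p14), the widespread transporter of basal glucose uptake known as GLUT1, was at 16.2 RPKM in HADH-S cells and 16.5 RPKM in control cells, from 380 and 375 reads. SLC2A3 (chromosome 12, 7919230 to 7936187), the high-affinity transporter GLUT3 of neurons and other cells with a steady demand for glucose, was at 6.83 RPKM in HADH-S cells and 7.91 RPKM in control cells, from 182 and 205 reads. The SLC2A1 level was 2.38 times that of SLC2A3 in HADH-S cells (interval 1.99 to 2.85) and 2.08 times in control cells (1.75 to 2.48). SLC2A1 thus made up 70.4% of the RPKM of this pair in HADH-S cells (66.5% to 74.0%) and 67.6% in control cells (63.7% to 71.3%), and these intervals overlap. SLC2A3 was the least abundant of the 10 genes in both libraries. SLC2A14, a close paralog of SLC2A3, was listed in neither table, and RefSeq names 3 pseudogenes of SLC2A3, so the assignment of reads among near-identical copies is uncertain.

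These were not the only sugar transporters at a measurable level. SLC2A8, an intracellular transporter, was at 11.5 RPKM in HADH-S cells and 10.05 RPKM in control cells. SLC2A6, another transporter of internal membranes, was at 11.3 RPKM in HADH-S cells and 8.001 RPKM in control cells, a ratio of 1.41 (1.13 to 1.77). SLC2A10 was at 3.50 RPKM in HADH-S cells and 2.58 RPKM in control cells, and SLC2A11 at 2.38 RPKM in HADH-S cells and 1.49 RPKM in control cells. SLC2A13, a carrier of myo-inositol, was at 1.07 RPKM in HADH-S cells and 1.08 RPKM in control cells. Over all 9 transporters listed in this family, SLC2A1 held 30.5% of the RPKM in HADH-S cells and 34.5% in control cells. SLC2A4, the insulin-responsive transporter of muscle and fat, had 2 and 3 reads in the HADH-S and control libraries, and SLC2A12 had 11 reads in the HADH-S library and 3 in the control library. SLC2A2, SLC2A5 and SLC2A9 were listed in neither table.

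**Figure D1:**
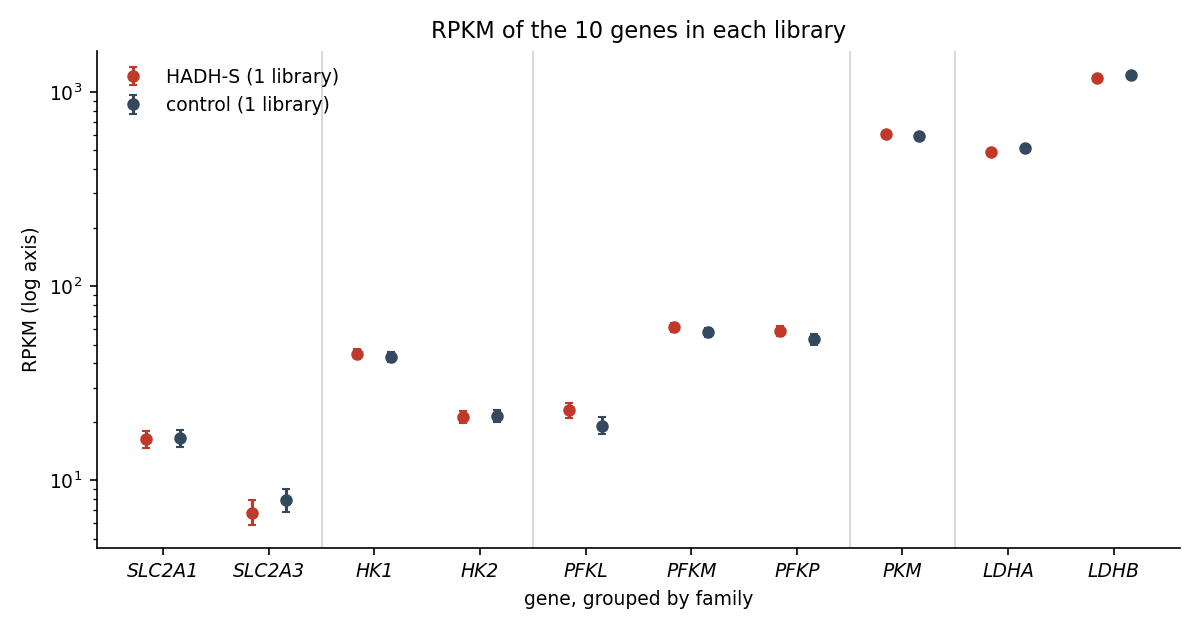
RPKM of the 10 genes on a log axis, with HADH-S cells in red on the left and control cells in dark blue on the right of each pair, 1 library each. Bars are exact 95% Poisson intervals from the read numbers; levels run from 6.83 RPKM for SLC2A3 to 1175 RPKM for LDHB in HADH-S cells, and the 2 libraries lie close together for every gene.

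Hexokinase was expressed as HK1 and HK2, with HK1 ahead. HK1 (chromosome 10, 69270000 to 69401882), the broadly expressed form that can bind the outer mitochondrial membrane, was at 44.9 RPKM in HADH-S cells and 43.1 RPKM in control cells, from 1250 and 1166 reads. HK2 (chromosome 2, 74834127 to 74893359), the inducible form of muscle and fat that many tumours express, was at 21.2 RPKM in HADH-S cells and 21.5 RPKM in control cells, from 829 and 820 reads. The HK1 level was 2.12 times that of HK2 in HADH-S cells (1.94 to 2.32) and 2.001 times in control cells (1.83 to 2.19). HK1 held 68.0% of the RPKM of this pair in HADH-S cells (66.0% to 69.9%) and 66.7% in control cells (64.6% to 68.7%). The lead depends in part on the lengths of the listed transcripts, 3998 nt for HK1 and 5626 nt for HK2: by coding length, HK1 held 60.0% in HADH-S cells and 58.6% in control cells. HKDC1, a hexokinase domain protein, had 4 and 2 reads in the HADH-S and control libraries, and HK3 was listed in neither table. RefSeq names 1 pseudogene of HK2, and how reads shared with it were assigned is not given in the sources used here.

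All 3 phosphofructokinase subunits were present, and the muscle and platelet types dominated over the liver type. Phosphofructokinase works as a tetramer that mixes these subunits, and it is the main point at which ATP, citrate and fructose 2,6-bisphosphate set the rate of glycolysis. PFKM (chromosome 12, 48105353 to 48146404) was at 61.3 RPKM in HADH-S cells and 57.8 RPKM in control cells, from 1351 and 1240 reads. PFKP (chromosome 10, 3067548 to 3136805) was at 58.7 RPKM in HADH-S cells and 53.4 RPKM in control cells, from 1074 and 949 reads. PFKL (chromosome 21, 44300053 to 44327373) was at 22.9 RPKM in HADH-S cells and 19.1 RPKM in control cells, from 464 and 377 reads. On the listed transcript lengths PFKM and PFKP could not be separated by counting error, with a PFKM to PFKP ratio of 1.04 in HADH-S cells (0.962 to 1.13) and 1.08 in control cells (0.995 to 1.18). By coding length PFKM was ahead, with a ratio of 1.12 in HADH-S cells (1.03 to 1.21) and 1.16 in control cells (1.07 to 1.26).

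PFKL was the minor subunit. PFKM exceeded it 2.67-fold in HADH-S cells (2.40 to 2.98) and 3.02-fold in control cells (2.69 to 3.40). The shares of PFKM, PFKP and PFKL were 42.9%, 41.1% and 16.04% of the summed RPKM in HADH-S cells, and 44.4%, 40.9% and 14.7% in control cells. PFKM overlaps SENP1 in the RefSeq annotation, and the strand setting of the counting is not given in the sources used here, so reads of the 2 genes may not be separated.

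**Figure D2:**
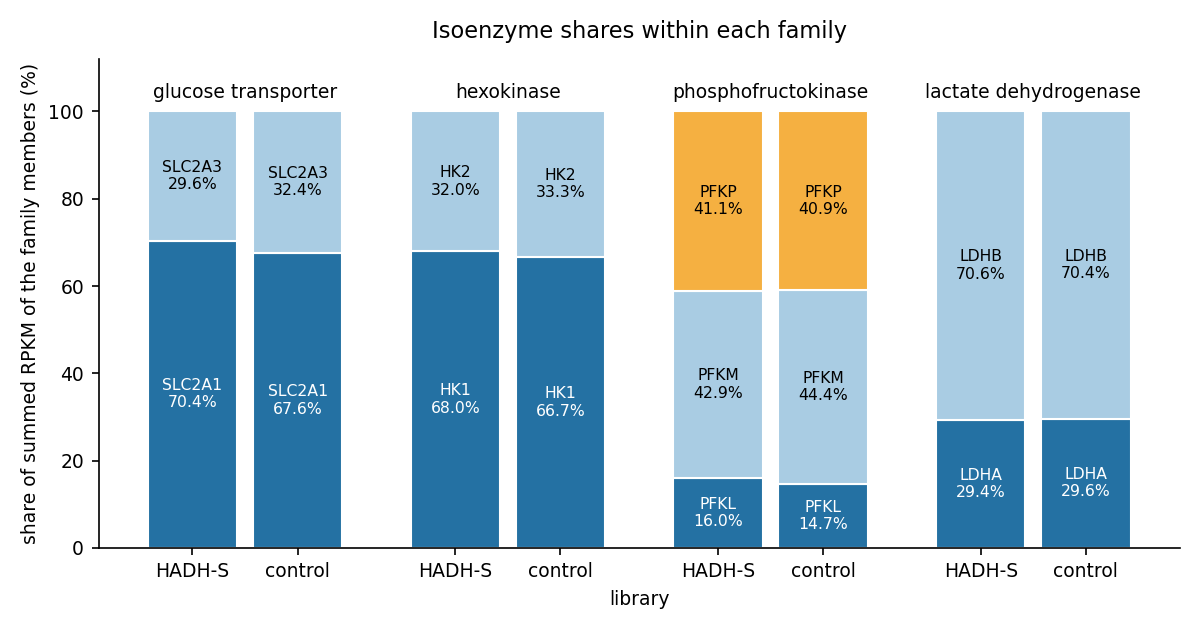
Share of each gene in the summed RPKM of its family members, in percent, with the HADH-S library left of the control library in each pair of bars. SLC2A1, HK1 and LDHB hold 66.7% to 70.6% of their pairs in either library, and PFKL is the smallest phosphofructokinase share at 16.04% in HADH-S cells and 14.7% in control cells.

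Pyruvate kinase rested on PKM alone. PKM (chromosome 15, 72199029 to 72231591) was at 610.1 RPKM in HADH-S cells and 596 RPKM in control cells, from 11544 and 10964 reads, and ranked 97th and 96th among all genes listed in the HADH-S and control tables. PKLR, the liver and red cell gene, was listed in neither table. RefSeq names 5 pseudogenes of PKM, and how reads shared with them were assigned is not given in the sources used here. PKM makes the isoforms PKM1 and PKM2 by the choice between mutually exclusive exons, and PKM2 is the form usual in proliferating cells. The tables give 1 row for the gene, so this choice was not measured. Of the splicing factors known to act on these exons, PTBP1 was at 130.1 RPKM in HADH-S cells and 123 RPKM in control cells (ratio 1.06, 1.01 to 1.11). HNRNPA1 was at 551 RPKM in HADH-S cells and 559.8 RPKM in control cells (0.984, 0.952 to 1.02). HNRNPA2B1 was at 385 RPKM in HADH-S cells and 399 RPKM in control cells (0.965, 0.939 to 0.993). These 3 were chosen after their values were seen. SRSF3 was at 123 RPKM in HADH-S cells and 130.5 RPKM in control cells, a ratio of 0.940 (0.897 to 0.984).

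Lactate dehydrogenase transcripts were the most abundant of the families, and LDHB exceeded LDHA. LDHA and LDHB subunits assemble into tetramers, of which those rich in LDHA are typical of skeletal muscle and of cells that release lactate, and those rich in LDHB of heart and of tissues that oxidise lactate. LDHB (chromosome 12, 21635342 to 21657842) was at 1175 RPKM in HADH-S cells and 1223 RPKM in control cells, from 10661 and 10796 reads, ranking 58th and 55th of all genes. LDHA (chromosome 11, 18394563 to 18408425) was at 488 RPKM in HADH-S cells and 514 RPKM in control cells, from 7838 and 8021 reads, ranking 117th and 113th. The LDHB level was 2.41 times that of LDHA in HADH-S cells (2.34 to 2.48) and 2.38 times in control cells (2.31 to 2.45). LDHB held 70.6% of the pair in HADH-S cells (70.0% to 71.2%) and 70.4% in control cells (69.8% to 71.0%).

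The size of the LDHB lead rests on the transcripts chosen for the length scaling. The listed LDHA transcript has 2305 nt and the listed LDHB transcript 1303 nt, while their coding parts have 1083 and 1023 nt. By coding length LDHB held 59.0% in HADH-S cells and 58.8% in control cells, and by reads alone 57.6% in HADH-S cells and 57.4% in control cells, so LDHB stayed ahead on each scale by a smaller margin. RefSeq names 6 pseudogenes of LDHA and 3 of LDHB, and how reads shared with them were assigned is not given in the sources used here. The testis gene LDHC had 2 reads in HADH-S cells and was not listed in control cells, and LDHAL6A was not listed in HADH-S cells and had 2 reads in control cells.

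The promoters of LDHA and LDHB are shown because this family has the highest summed level and because their start regions differ in sequence. Each runs from 250 bases before to 50 bases after the annotated start in RefSeq GRCh38.p14. Capitals mark CACGTG, the palindromic E-box letters, and CCGCCC, the GC-box letters, searched on both strands (the GC box as CCGCCC or GGGCGG). LDHA, the first of its 2 annotated starts, lies at chr11:18394313-18394612 on the plus strand, and LDHB at chr12:21657793-21658092 on the minus strand.
LDHA: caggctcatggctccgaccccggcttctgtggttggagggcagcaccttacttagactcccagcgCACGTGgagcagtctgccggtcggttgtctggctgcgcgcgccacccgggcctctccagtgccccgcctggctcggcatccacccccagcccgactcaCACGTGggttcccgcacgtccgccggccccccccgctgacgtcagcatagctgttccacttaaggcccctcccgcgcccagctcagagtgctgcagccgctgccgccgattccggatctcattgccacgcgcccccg
LDHB: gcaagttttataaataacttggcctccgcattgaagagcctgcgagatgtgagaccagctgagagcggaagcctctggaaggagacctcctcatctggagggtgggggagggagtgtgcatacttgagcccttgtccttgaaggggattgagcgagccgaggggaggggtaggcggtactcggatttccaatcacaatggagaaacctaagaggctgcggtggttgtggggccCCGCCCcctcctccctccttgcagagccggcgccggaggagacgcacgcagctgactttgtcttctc
The LDHA window holds CACGTG 2 times, beginning 185 and 87 bases before the start, and no CCGCCC. The LDHB window holds no CACGTG and 1 CCGCCC, beginning 17 bases before the start. Of 35116 promoters in the RefSeq table, 7.26% hold at least 1 CACGTG and 0.664% hold 2 or more, while 45.0% hold CCGCCC. GC makes up 70.0% of the LDHA window and 59.0% of the LDHB window, against a median of 58.7% over all promoters. The second LDHA start holds no CACGTG and 4 CCGCCC. Promoters were matched for 9 of the 10 genes, the exception being SLC2A3, with 26 annotated starts in all. Among these genes only LDHA and HK2 hold CACGTG, HK2 at the second of its 2 starts, and all 9 hold CCGCCC at some start. The percentages above are per promoter, so these counts of genes with several starts cannot be set against them. These matches describe letters in the reference, and the start used in RKO cells was not measured.

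On the listed transcript lengths, the order of levels was nearly the same in both libraries. In both it ran LDHB, PKM, LDHA, PFKM, PFKP and HK1, ending in SLC2A1 and SLC2A3, with PFKL and HK2 in between. PFKL stood above HK2 in HADH-S cells, at a ratio of 1.08 (0.965 to 1.22), and HK2 above PFKL in control cells, at a ratio of 1.12 (0.994 to 1.27), so these neighbours were not separable in either library. On these lengths the other neighbours that could not be separated by counting error were PFKM and PFKP. The widest step lay between LDHA and PFKM, 7.97-fold in HADH-S cells (7.52 to 8.45) and 8.89-fold in control cells (8.37 to 9.44).

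Parts of this order changed with the length used for scaling. By coding length LDHB stayed first and SLC2A3 last in both libraries. In control cells SLC2A3 was not separable from PFKL on that scale, with a PFKL to SLC2A3 ratio of 1.17 (0.984 to 1.39). PKM and LDHA were then not separable in HADH-S cells, with a PKM to LDHA ratio of 1.001 (0.973 to 1.03), and LDHA stood above PKM in control cells, with a ratio of 0.929 (0.903 to 0.957). PFKP and HK1 were not separable on that scale, with a PFKP to HK1 ratio of 1.01 in HADH-S cells (0.929 to 1.10) and 0.956 in control cells (0.877 to 1.04). PFKL moved below both HK2 and SLC2A1, at 0.770 times the SLC2A1 level in HADH-S cells (0.671 to 0.884) and 0.634 times in control cells (0.548 to 0.734).

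Set against the control, the 10 genes differed little in HADH-S cells. Differences are given as log2((RPKM + 1) of HADH-S / (RPKM + 1) of control), and 0 of the 10 reached a value of 1 or -1, a 2-fold limit of size that is not a test. Of the 10331 genes averaging 1 RPKM or more, 0.3% reached it upward and 0.0484% downward. With a limit of 1.5-fold 0 of the 10 reached it as well, against 1.91% of all these genes. The 10 values ran from -0.19 for SLC2A3 to 0.25 for PFKL, with a median of 0.01, which was also the median of the 10331 genes. The ratio was above 1 for 5 genes and below 1 for 5, and 8 of the 10 log2 values lay within the central 50% of all genes, -0.11 to 0.14.

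Counting intervals excluded 1 for 4 genes. They lay above 1 for 2, PFKL with a ratio of 1.20 (1.04 to 1.38) and PFKP with a ratio of 1.10 (1.01 to 1.20), and 13.8% of all tested genes had such an interval. They lay below 1 for 2, LDHA with a ratio of 0.9505 (0.921 to 0.981) and LDHB with a ratio of 0.961 (0.935 to 0.987), against 11.6% of all tested genes. Among the 6466 genes with at least 387 reads over both libraries, the number of the least covered of the 10, these percentages were 15.4% above and 15.5% below. Intervals excluding 1 were thus common in these 2 libraries among genes above that floor, and 2 of 10 in each direction is near these percentages. The floor does not match the coverage of each gene. LDHA had 7838 reads in HADH-S cells and 8021 in control cells, and LDHB 10661 and 10796. At such depth a small difference is enough for an interval to exclude 1. The PFKP interval included 1 once both libraries were scaled to equal RPKM totals (0.991 to 1.18).

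The remaining 6 genes had intervals that included 1. PKM, the best covered of the 10, had a ratio of 1.02 (0.998 to 1.05), PFKM one of 1.06 (0.980 to 1.15) and HK1 one of 1.04 (0.962 to 1.13). HK2 had a ratio of 0.983 (0.892 to 1.08), SLC2A1 one of 0.986 (0.852 to 1.14) and SLC2A3 one of 0.864 (0.703 to 1.06). The SLC2A3 interval, from the fewest reads, is the widest of the 10, and a difference within it was not detectable at this depth.

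**Figure D3:**
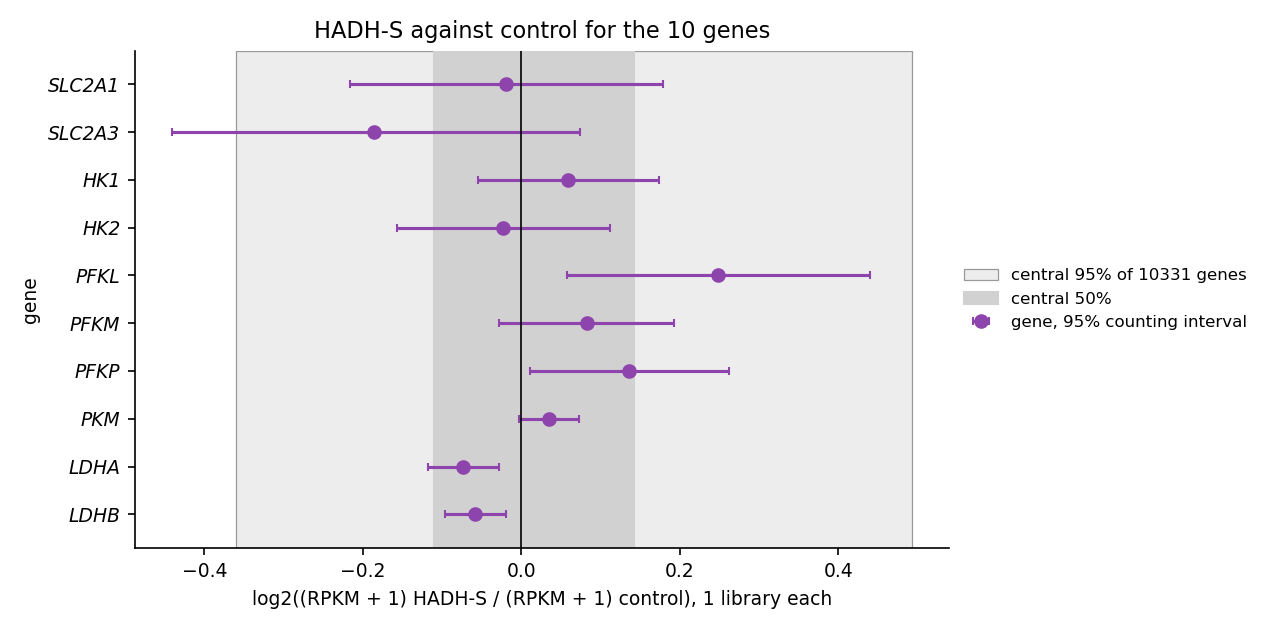
log2((RPKM + 1) of HADH-S / (RPKM + 1) of control) for each gene, with 95% counting intervals, 1 library each. The light band holds the central 95% and the dark band the central 50% of 10331 genes; all 10 points lie in the light band, and 8 of them in the dark band.

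Isoenzyme ratios within a family could not be separated between the libraries by counting error. The ratio of LDHB to LDHA in HADH-S cells was 1.01 times that in control cells (0.970 to 1.05), and the ratio of HK1 to HK2 1.06 times (0.934 to 1.20). The ratio of SLC2A1 to SLC2A3 in HADH-S cells was 1.14 times that in control cells (0.886 to 1.47), and that of PFKM to PFKL 0.885 times (0.755 to 1.04). For PFKP to PFKL it was 0.920 times (0.780 to 1.08) and for PFKM to PFKP 0.963 times (0.855 to 1.08). All 6 intervals include 1, and that of the lactate dehydrogenase pair, from the most reads, is the narrowest. Differences within the wider intervals were not detectable at this depth. Summed over a family, phosphofructokinase was at 143 RPKM in HADH-S cells and 130.3 RPKM in control cells, and hexokinase at 66.1 RPKM in HADH-S cells and 64.6 RPKM in control cells. Lactate dehydrogenase summed to 1663 RPKM in HADH-S cells and 1737 RPKM in control cells, and the transporter pair to 23.1 RPKM in HADH-S cells and 24.4 RPKM in control cells.

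Placed along the pathway on the listed transcript lengths, transcript levels were low for the transporter pair and the first steps. They were higher from triose-phosphate isomerase on, with phosphoglycerate kinase the exception, and this profile was not recomputed by coding length. Glucose-6-phosphate isomerase, GPI, was at 121 RPKM in HADH-S cells and 115 RPKM in control cells. The aldolase ALDOA was at 93.8 RPKM in HADH-S cells and 86.1 RPKM in control cells, and ALDOC at 10.9 RPKM in HADH-S cells and 11.9 RPKM in control cells. TPI1, which interconverts the triose phosphates, was at 468 RPKM in HADH-S cells and 454 RPKM in control cells. GAPDH, the NADH-producing dehydrogenase, was at 3348 RPKM in HADH-S cells and 3239 RPKM in control cells, the highest level of the pathway.

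Of the later trunk enzymes, each step between GAPDH and pyruvate kinase had 1 leading gene. PGK1, the first ATP-producing enzyme, was at 145 RPKM in HADH-S cells and 154 RPKM in control cells. Its listed transcript has 4812 nt, of which 1251 nt are coding, and that of TPI1 1763 nt, of which 858 nt are coding. PGK1 had 4852 reads in HADH-S cells and 5006 in control cells, and TPI1 5748 and 5416. The place of PGK1 as the exception was thus read on the listed lengths only. PGAM1 was at 477 RPKM in HADH-S cells and 466 RPKM in control cells, while the muscle mutase PGAM2 had 2 reads in each library. ENO1 was at 1686 RPKM in HADH-S cells and 1728 RPKM in control cells, the neuronal enolase ENO2 at 28.0 RPKM in HADH-S cells and 24.8 RPKM in control cells, and the muscle enolase ENO3 at 1.98 RPKM in HADH-S cells and 0.777 RPKM in control cells. ENO1 therefore held 98.3% of enolase RPKM in HADH-S cells and 98.5% in control cells, PGAM1 99.9% of mutase RPKM in both, and ALDOA 89.6% of the RPKM summed over ALDOA and ALDOC in HADH-S cells and 87.8% in control cells. Against these, the transporter, hexokinase, phosphofructokinase and lactate dehydrogenase families were mixed.

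**Figure D4:**
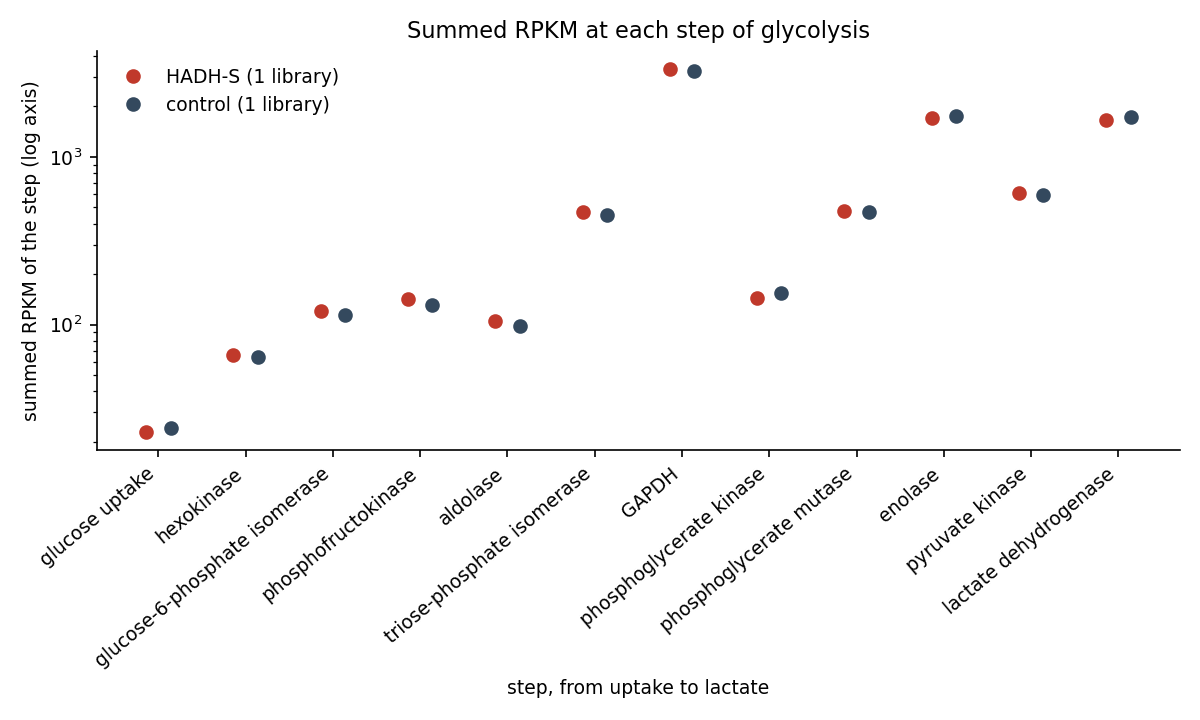
Summed RPKM of the genes of each step on a log axis, from glucose uptake to lactate dehydrogenase, with HADH-S cells in red on the left and control cells in dark blue on the right, 1 library each. Sums run from 23.1 RPKM at the transporter pair to 3348 RPKM at GAPDH in HADH-S cells, and the libraries differ by a factor of at most 1.10 at any step. Glucose uptake here is SLC2A1 and SLC2A3 only. The other listed sugar transporters, left out of it, sum to 30.1 RPKM in HADH-S cells and 23.4 RPKM in control cells.

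Of 11 other enzyme genes of the trunk, 10 averaged 1 RPKM or more, with a median log2 value of 0.05, and 7 were above 0 and 3 below. Counting intervals lay above 1 for 4 of them and below 1 for 2, against 13.8% above and 11.6% below among all tested genes. Those above were GPI with a ratio of 1.05 (1.005 to 1.10), GAPDH with 1.03 (1.02 to 1.05), ENO2 with 1.13 (1.0001 to 1.28) and ENO3 with 2.55 (1.09 to 6.67), the last from 21 and 8 reads in HADH-S and control cells. Those below were PGK1 with 0.943 (0.906 to 0.981) and ENO1 with 0.976 (0.957 to 0.995). With equal RPKM totals, 2 of the 10 intervals lay above 1. The percentages of all tested genes are not matched for coverage, and intervals narrow as reads increase. GAPDH had 31426 reads in HADH-S cells and 29574 in control cells, and ENO1 20928 and 20862.

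Genes that surround the pathway were read from 7 further lists, whose counts of intervals off 1 stand against the same percentages of all tested genes. The 5 other sugar transporters averaging 1 RPKM or more had a median log2 value of 0.33, with 4 above 0 and 1 below. Their intervals lay above 1 for 2, SLC2A6 and SLC2A11 (ratio 1.59, 1.01 to 2.53), and for 0 below, against 13.8% and 11.6% of all tested genes. All 5 have at most 196 reads in a library, and after scaling to equal RPKM totals 1 interval lay above 1.

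The 12 genes of lactate export and pyruvate fate had a median of -0.08, with 2 intervals above 1 and 1 below. PDK1, a kinase that switches off pyruvate dehydrogenase, was at 8.06 RPKM in HADH-S cells and 10.2 RPKM in control cells (ratio 0.787, 0.585 to 1.06). Its relative PDK2 was at 5.17 RPKM in HADH-S cells and 4.08 RPKM in control cells (1.27, 0.958 to 1.68), and the lactate and pyruvate carrier SLC16A7 at 1.36 RPKM in HADH-S cells and 1.73 RPKM in control cells (0.785, 0.607 to 1.01). The genes with an interval off 1 were chosen after their values were seen. The lactate exporter SLC16A3 was at 31.3 RPKM in HADH-S cells and 28.1 RPKM in control cells (1.11, 1.02 to 1.22), and its chaperone BSG at 201 RPKM in HADH-S cells and 182 RPKM in control cells (1.10, 1.04 to 1.17). The lactate carrier SLC16A1 was at 68.7 RPKM in HADH-S cells and 74.8 RPKM in control cells (0.918, 0.865 to 0.975).

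The enzymes that make and remove fructose 2,6-bisphosphate, the activator of phosphofructokinase, had 0 of 4 intervals off 1. PFKFB3 was at 17.6 RPKM in HADH-S cells and 18.4 RPKM in control cells, PFKFB2 at 3.29 RPKM in HADH-S cells and 2.84 RPKM in control cells and PFKFB4 at 2.46 RPKM in HADH-S cells and 1.94 RPKM in control cells. Of the 6 splicing factors listed for PKM, 1 had an interval above 1 (PTBP1) and 2 below (HNRNPA2B1 and SRSF3), with a median log2 value of -0.07. RBM4 had a ratio of 0.888 (0.748 to 1.05) and NEK2 one of 0.931 (0.785 to 1.10).

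Among 14 HIF and hypoxia genes the median was 0.01, with 0 intervals above 1 and 1 below, that of INSIG2, a sterol-pathway regulator that hypoxia also induces, at 5.65 RPKM in HADH-S cells and 8.44 RPKM in control cells (0.670, 0.463 to 0.962). VEGFA was at 11.1 RPKM in HADH-S cells and 8.495 RPKM in control cells (1.30, 0.953 to 1.78) and DDIT4 at 4.86 RPKM in HADH-S cells and 3.72 RPKM in control cells (1.30, 0.868 to 1.97), and CA9, a marker of HIF activity, was listed in neither table. On the glucose-sensing list 2 of 6 intervals lay above 1 and 0 below. ARRDC4, a target of the glucose-sensing factor MondoA, was at 5.97 RPKM in HADH-S cells and 4.14 RPKM in control cells (1.44, 1.13 to 1.85), and the glycogen-targeting subunit PPP1R3B at 18.3 RPKM in HADH-S cells and 15.5 RPKM in control cells (1.18, 1.06 to 1.32). TXNIP, which shares that regulation and restrains glucose uptake, was at 18.6 RPKM in HADH-S cells and 19.6 RPKM in control cells (0.952, 0.824 to 1.10).

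Of 8 gluconeogenic genes, 3 averaged 1 RPKM or more, and FBP1, PCK1 and G6PC1 were listed in neither table. SLC37A4, the glucose 6-phosphate carrier of the endoplasmic reticulum, was at 9.94 RPKM in HADH-S cells and 13.2 RPKM in control cells (0.751, 0.609 to 0.926). PCK2, the mitochondrial PEP carboxykinase, was at 14.2 RPKM in HADH-S cells and 11.7 RPKM in control cells (1.22, 0.995 to 1.501), and G6PC3 at 26.3 RPKM in HADH-S cells and 23.0 RPKM in control cells (1.14, 0.959 to 1.36).

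**Figure D5:**
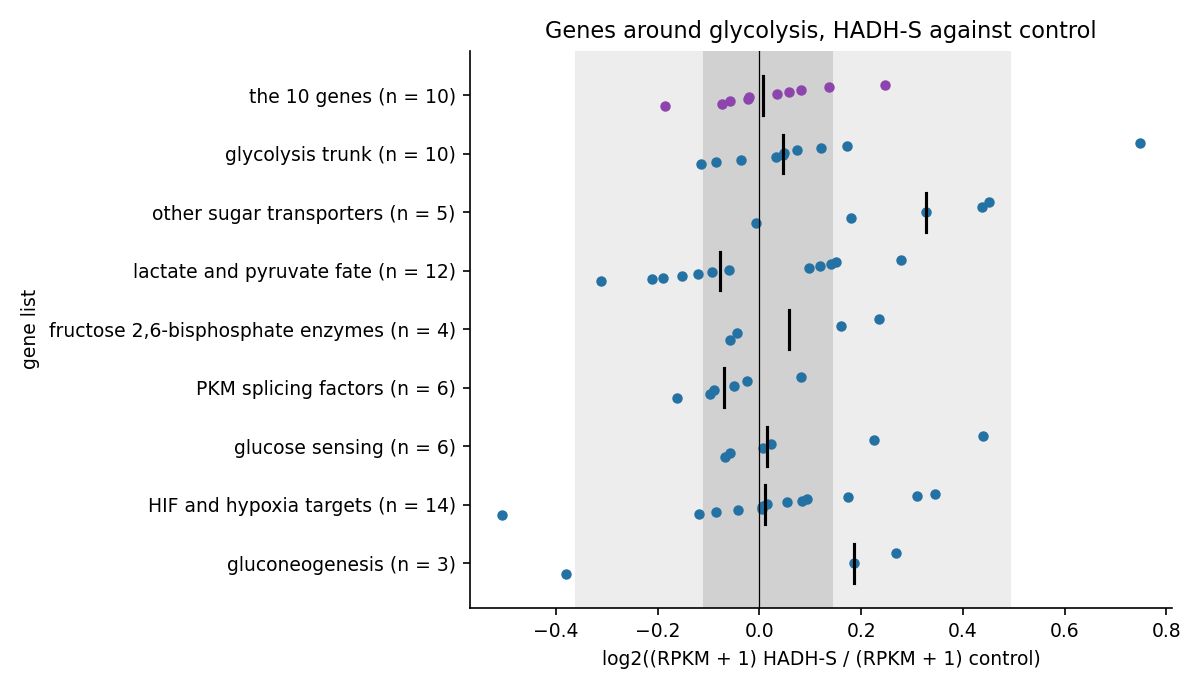
log2((RPKM + 1) of HADH-S / (RPKM + 1) of control) for the 10 genes and for 8 lists of genes around glycolysis, each point a gene averaging 1 RPKM or more and each black line the median of its list. The light and dark bands hold the central 95% and 50% of 10331 genes; the median of the 10 genes is 0.01 and that of the other sugar transporters 0.33.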

How the data were processed

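RNA of 1 HADH-S and 1 control library was analysed. Per the labels' protocols, RNA was isolated with Trizol for mRNA libraries. Per the file headers, the authors deposited 1 RPKM value per gene, in rows naming a symbol, an Ensembl gene and transcript, coding bounds and length. Per the submitters' processing notes, GRCh38, fastp 0.23.2 and SAMtools 1.9 were used in the series; the RNA aligner, counter and strand setting were not given in the sources used here.

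RPKM times length was a whole number of reads for 100% of values (tolerance 0.01). A gene missing from 1 table was taken as 0 reads there. Ratios carry exact conditional (Clopper-Pearson) 95% intervals from these reads, between genes after scaling by length; since amplified reads can come from the same molecule, they cover counting error only. Changes in isoenzyme ratio carry a conditional odds-ratio interval. Log2 values used a pseudocount of 1 at a mean RPKM of at least 1, which understates low genes. Simulated Poisson reads for 10331 genes gave 95.5% coverage of the ratio interval. Poisson reads meet the interval's own assumption, so this checks the computation and not the spread of these data. Symbols of all 10 genes equalled those of the name table. Coordinates and promoters are from RefSeq GRCh38.p14.

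The 10 genes and all lists were chosen with earlier results of these data known. Named were the 10, other isoenzymes, trunk enzymes and the 3 largest differences of each list; some of these genes are not reported here. Alternatives were pseudocounts, scalings, filters, a length trend, a 99% interval and other share units. Python 3.11.15, SciPy 1.17.1 and pandas 2.3.3 were used.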

Additional observations from a re-analysis of the deposited data

How the results depend on the processing

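Leaving out a replicate was not possible with 1 library per condition. No paired analysis was possible because each condition has 1 library. The log2 values of the 10 genes kept their sign under all 7 alternatives, and 69 of 70 stayed within the gene's counting interval; LDHB was at -0.13 without the length trend. No gene passed the size limit under any alternative tried. Of the 2 intervals above 1, 0 remained at the 99% level, 1 with equal RPKM totals and 1 with equal 75th percentiles, while the 2 below 1 stayed at 2.

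Shares depended on the unit. The share of reads was 60.1% (HADH-S) and 58.7% (control) for HK1, 46.8% and 48.3% for PFKM, 37.2% and 37.0% for PFKP, and 57.6% and 57.4% for LDHB. By coding length, chosen after seeing the data, it was 60.0% and 58.6% for HK1 and 59.0% and 58.8% for LDHB. Over all transporters, SLC2A1 held 30.5% and 34.5%. Coding length also turned the PKM to LDHA ratio to 0.929 and the PFKP to HK1 ratio to 0.956 in control cells, the PFKL to HK2 ratio to 0.658 in HADH-S cells, and the PFKL to SLC2A1 ratio to 0.770 in HADH-S cells and 0.634 in control cells. By reads with no length, also chosen after seeing the data, the LDHB to PKM ratio was 0.924 in HADH-S cells and 0.985 in control cells, the PFKL to HK2 ratio 0.560 in HADH-S cells, and the PFKP to HK1 ratio 0.859 in HADH-S cells and 0.814 in control cells. These settings differ only in the length used.

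The percentage of all genes 2-fold higher was 0.152% among genes averaging 5 RPKM or more and 0.108% at the reads of the least covered of the 10, and the percentage lower was 0% at both. With equal RPKM totals, intervals above 1 numbered 2 for the trunk enzymes, 1 for the other transporters and 0 for the splicing factors, and intervals below 1 numbered 3 for lactate and pyruvate fate. With the median set to 0, the trunk count above 1 was 2. Depth limits SLC2A3 most, with 182 and 205 reads.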
